A study of Capsella grandiflora x Capsella rubella and Capsella rubella and Capsella grandiflora with 8 samples.

Results

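The genes described here are the Capsella homologues of AGL29, AGL39 and AGL91, which encode type I MADS-box transcription factors. They were chosen by name, as 3 of the 26521 genes in the count table, by a rule that uses no measured value. The AGL29 homologue is Carubv10025656m.g, the AGL39 homologue is Carubv10001421m.g and the AGL91 homologue is Carubv10014761m.g. The question asked of them was which ones differ in seeds between the 2 parental species, and how each of them stood in the hybrids of these species.

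Expression was measured by RNA-sequencing of whole seeds harvested 6 days after pollination (DAP), with 2 biological replicates of 300 to 500 seeds for each of 4 crosses. They were the hybrid of a C. rubella mother and a C. grandiflora father (Cr × Cg), the reciprocal hybrid with C. grandiflora as the mother (Cg × Cr), and seeds of C. grandiflora (Cg) and of C. rubella (Cr) themselves. C. rubella, a selfing species, was represented by accession Cr48.21, and the outcrossing C. grandiflora by accession Cg4a. In all crosses the female plants were emasculated and pollinated by hand, and each species stands for a single accession.

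Type I MADS-box proteins act mainly in the female gametophyte and in the endosperm, the nourishing tissue of the seed that arises from fertilization of the central cell. In Arabidopsis, AGL62 holds back the formation of cell walls in the early endosperm, and AGL61 and AGL80 specify the central cell, while PHE1 is a classic imprinted gene expressed from the paternal allele. Type I proteins bind DNA as dimers with other members of the family. In Arabidopsis, AGL29, AGL39 and AGL91 belong to the Mα subclass, as do AGL28, AGL40, AGL61 and AGL62. No function in seeds is given here to AGL29, AGL39 or AGL91 individually.

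Library totals lay between 24838286 and 34290034 counts, and a single count was worth 0.0296 to 0.0422 CPM, the count relative to the scaled library size. The 8 endosperm markers all had counts in every library, except MEA, a Polycomb gene of the endosperm, which had none in Cg × Cr replicate 1. Their summed level was 172 and 325 CPM in Cr × Cg, 78.25 and 206.5 in Cg × Cr, 177 and 125 in Cg, and 187 and 278 in Cr. The 11 markers of embryo and seed maturation summed to between 99.9 and 11830 CPM, with up to 2 of them at 0, and the 4 seed coat markers summed to between 224 and 670 CPM with none at 0. These markers were available only for genes that the study lists as deregulated, so they are not an independent choice. The 2 Cg × Cr libraries differed in one more respect. Over 42 genes that averaged at least 5 CPM in Cr × Cg and stayed under 0.5 CPM in every parental library, a set defined after the data had been seen, Cg × Cr replicate 1 held 0.697% and replicate 2 held 4.28% of the Cr × Cg level. Counts were found for 21 of these genes in replicate 1 and for 41 in replicate 2. The comparisons of Cg × Cr with the parents are therefore also given without each of its libraries.

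The AGL29 homologue was a scarcely expressed gene in seeds of both parents. Cr × Cg yielded 57 and 40 counts, Cg × Cr 1 and 1, Cg 7 and 4, and Cr 14 and 8. In CPM, with library sizes scaled by TMM (trimmed mean of M-values), this was 1.69 ± 0.0102 in Cr × Cg, 0.0355 ± 0.00327 in Cg × Cr, 0.191 ± 0.0602 in Cg and 0.364 ± 0.0727 in Cr (SD, n = 2 each). No library of any cross overlapped with those of another cross, and Cr × Cg stood at the top and Cg × Cr at the bottom. Among all 21214 genes tested, 15.8% had both Cr × Cg libraries above the other 6. Both Cg × Cr libraries lay below the other 6 for 6.48%. The SD of Cg × Cr rests on a single count in each library and is not a measure of biological spread.

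The AGL39 homologue showed the same order of crosses, with more spread between replicates. Cr × Cg yielded 49 and 94 counts, Cg × Cr 1 and 2, Cg 7 and 1, and Cr 8 and 8. The level was 2.71 ± 1.77 CPM in Cr × Cg, 0.0544 ± 0.0300 in Cg × Cr, 0.135 ± 0.139 in Cg and 0.275 ± 0.0531 in Cr (SD, n = 2 each). Both Cr × Cg libraries lay above the other 6 libraries. Cg overlapped with Cg × Cr, and its replicate 1 (0.233 CPM) almost touched replicate 1 of Cr (0.237 CPM).

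The AGL91 homologue differed from the other two in that Cg, and not Cr, was the higher parent. Cr × Cg yielded 693 and 733 counts, Cg × Cr 4 and 39, Cg 81 and 93, and Cr 8 and 10. The level was 25.8 ± 7.23 CPM in Cr × Cg, 0.804 ± 0.949 in Cg × Cr, 3.07 ± 0.525 in Cg and 0.314 ± 0.108 in Cr (SD, n = 2 each). Cr × Cg lay above Cg, and Cg above Cr, without overlap. The Cg × Cr libraries lay on either side of Cr, with 0.133 CPM in replicate 1 and 1.48 CPM in replicate 2, a ratio of 11.1 between them. Replicate 2 is also the Cg × Cr library with the larger trace of Cr × Cg genes and the higher endosperm marker sum. Its AGL91 level was 5.72% of the Cr × Cg mean, beside 4.28% for the 42 genes above, and that of replicate 1 was 0.515%, beside 0.697%. The part of carry-over from Cr × Cg, or of the endosperm, in its AGL91 count was not tested.

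**Figure D1:**
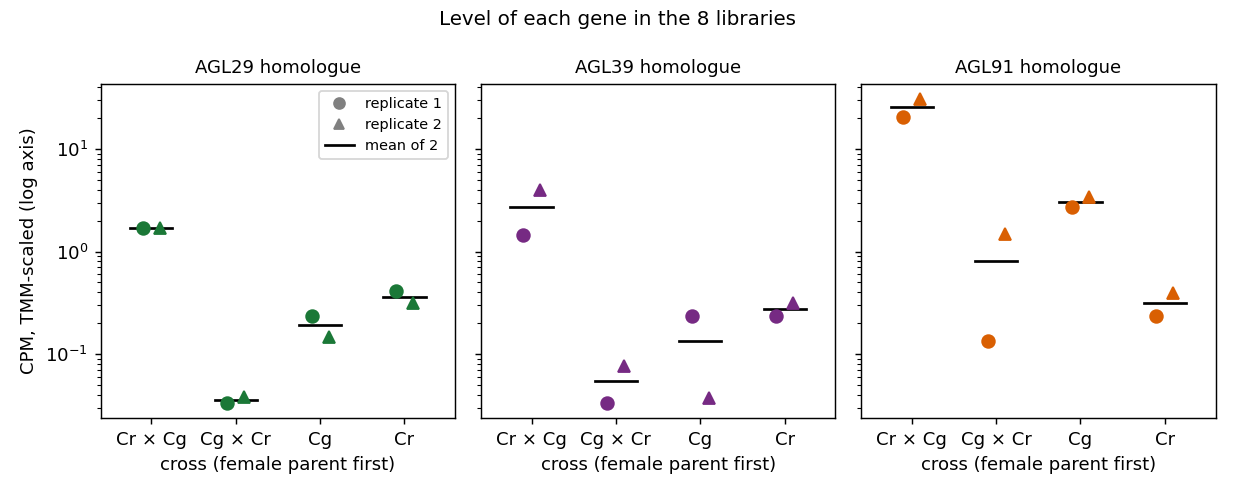
Levels of the AGL29, AGL39 and AGL91 homologues in the 8 libraries, as TMM-scaled CPM on a log axis, by cross; circles and triangles are the 2 replicates and bars their mean. All 3 genes are highest in Cr × Cg, and AGL91 alone is higher in Cg (3.07 CPM) than in Cr (0.314 CPM).

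All 3 genes passed the filter on low counts, which needs about 0.353 CPM in 2 libraries, but not in the same way. The AGL39 homologue reached this level in the Cr × Cg libraries and in no other, and the AGL29 homologue in these and in Cr replicate 1. The AGL91 homologue reached it in 6 libraries. The first 2 genes were thus tested because Cr × Cg was high. Reads of C. grandiflora alleles were aligned to the C. rubella genome, and its effect on the counts in Cg and in the hybrids was not tested. In whole seeds, fewer cells of a type and less RNA per cell cannot be told apart.

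Between the parents, the AGL91 homologue was higher in Cg than in Cr, and a difference was not detected for the AGL29 and AGL39 homologues. AGL91 had a log2 fold change of 3.30 (SE 0.88, 95% interval 1.25 to 5.34, adjusted p = 0.048 in edgeR's quasi-likelihood test), with both Cg libraries above both Cr libraries. The summed counts of 174 in Cg and 18 in Cr gave a ratio of 10.1 (exact 95% interval 6.18 to 17.4, counting error only). For AGL29 the log2 fold change was -0.92 (SE 0.67, 95% interval -2.46 to 0.63, edgeR adjusted p = 0.41), from 11 counts in Cg and 22 in Cr. For AGL39 it was -0.97 (SE 0.96, 95% interval -3.16 to 1.23, edgeR adjusted p = 0.54), from 8 counts in Cg and 16 in Cr. Both intervals include a level that is several times lower in Cg, so these counts do not show that the parents were alike. Among all 21214 genes tested, 13% differed between the parents (7.66% higher and 5.38% lower in Cg), against 1 of these 3.

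The AGL91 call rested on few libraries. Leaving out Cr replicate 1 (edgeR adjusted p = 0.22), Cr 2 (0.16), Cg 1 (0.11), Cg 2 (0.16), Cr × Cg 1 (0.072) or Cr × Cg 2 (0.069) ended it, and so did a fit without the filter on low counts (0.056). A fit that leaves 1 library in a cross assumes that it varies like the other crosses. In the 15 alternative fits the adjusted p of AGL91 lay between 0.00036 and 0.22 and its log2 fold change between 2.97 and 3.66. That of AGL29 lay between -1.28 and -0.64 and that of AGL39 between -2.75 and -0.22, and neither gene was called in any of them.

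**Figure D2:**
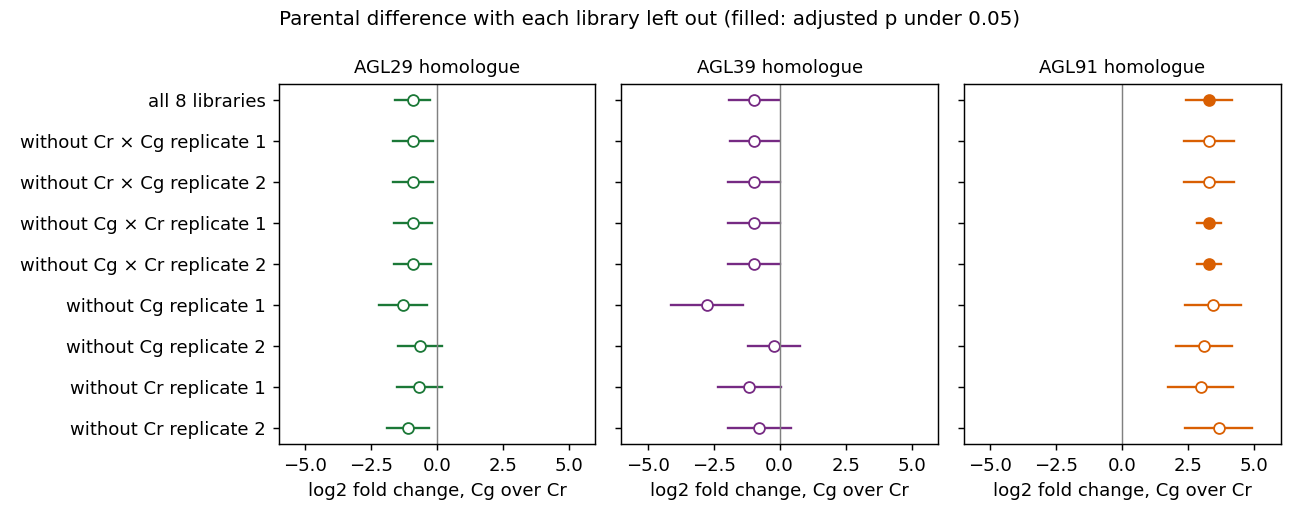
Log2 fold change of Cg over Cr for each gene, with all 8 libraries and with each library left out; bars are the SE of edgeR's test and filled points have an adjusted p under 0.05. AGL91 stays between 2.97 and 3.66 while its call is lost in 6 of 8 fits, and AGL29 and AGL39 stay below 0 without a call.

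Whether AGL91 differed from the other 2 genes in its parental change was also examined directly, by the log2 ratio of 2 genes within each library (pseudocount of 0.5 CPM). The ratio of AGL91 to AGL29 was 2.13 and 2.60 in Cg, against -0.31 and 0.13 in Cr, a difference of 2.45. The ratio of AGL91 to AGL39 was 2.13 and 2.88 in Cg, against 0.00 and 0.13 in Cr, a difference of 2.43. The pseudocount exceeds every parental level of AGL29 and AGL39, and with 0.1 CPM in its place the 2 differences were 3.63 and 3.76. In both cases the 4 parental libraries separated by species. The exact two-sided permutation test gave p = 0.333, the smallest that 2 against 2 libraries allow. The ratio of AGL29 to AGL39 was 0.00 and 0.27 in Cg, against 0.31 and 0.00 in Cr, and overlapped (exact permutation p = 1).

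Marker sums also differed between the species. The seed coat markers summed to 321 and 358 CPM in Cg, against 670 and 654 in Cr, and the endosperm markers to 177 and 125 CPM in Cg, against 187 and 278 in Cr. The embryo and maturation markers summed to 614 and 346 CPM in Cg, with 1 of the 11 at 0 in replicate 2, and to 11830 and 1006 in Cr with none at 0. The sums were lower in both Cg libraries than in either Cr library, but some of their members were higher in both. MINI3, an early endosperm regulator, had 5.99 and 6.69 CPM in Cg, against 0.919 and 2.07 in Cr, and FWA, an imprinted endosperm gene, had 9.59 and 6.07 CPM in Cg, against 3.47 and 3.78 in Cr. MEA had 0.799 and 0.999 CPM in Cg, against 0.267 and 0.390 in Cr. TT12, a seed coat transporter, had 76.9 and 127 CPM in Cg, against 26.6 and 22.8 in Cr. LEC2, of the embryo list, had 103 and 100 CPM in Cg, against 53.1 and 88.8 in Cr. The part of these markers in the parental difference of AGL91 was not tested.

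In Cr × Cg seeds, all 3 genes were higher than in either parent. AGL29 and AGL39 had passed the filter on low counts only with the help of the Cr × Cg libraries. Their tests of a higher level in Cr × Cg, against any other cross, are therefore not independent of that filter. Against Cr, where 22.7% of all tested genes were called (12.4% higher and 10.3% lower), AGL91 rose most, with a log2 fold change of 6.37 (SE 0.95, edgeR adjusted p = 0.0039). The AGL39 homologue rose by 3.29 (SE 0.88, edgeR adjusted p = 0.03) and the AGL29 homologue by 2.20 (SE 0.63, edgeR adjusted p = 0.038). The corresponding ratios of summed counts were 82.2 for AGL91 (exact 95% interval 51.8 to 139.1), 9.27 for AGL39 (5.52 to 16.7) and 4.58 for AGL29 (2.86 to 7.64). AGL91 was called in each of 15 alternative fits, with an adjusted p of at most 0.037. Leaving out Cr replicate 1 (0.11), Cr 2 (0.17), Cr × Cg 1 (0.11), Cr × Cg 2 (0.13), Cg × Cr 1 (0.055) or Cg × Cr 2 (0.054) ended the AGL29 call, and so did DESeq2 (0.077), a fit without the filter on low counts (0.057) and a fit of only the crosses compared (0.055). The replicate number as a block also ended it (edgeR adjusted p = 0.052), so that AGL29 was called in 5 of 15 alternative fits. These 5 include a block with the replicate numbers of Cg exchanged, which was chosen after the data had been seen. The AGL39 call ended when Cr replicate 1 (0.13), Cr 2 (0.12) or Cr × Cg 2 (0.17) was left out, with a range of 0.011 to 0.17.

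Against Cg, where 14.9% of all tested genes were called (7.28% higher and 7.59% lower), the 3 genes rose by amounts closer to each other. The log2 fold change was 4.25 for AGL39 (SE 0.94, edgeR adjusted p = 0.022), 3.12 for AGL29 (SE 0.67, edgeR adjusted p = 0.019) and 3.07 for AGL91 (SE 0.78, edgeR adjusted p = 0.037). The ratios of summed counts were 17.8 for AGL39 (exact 95% interval 8.81 to 42.1), 8.79 for AGL29 (4.70 to 18.2) and 8.17 for AGL91 (6.98 to 9.62). The comparisons with Cr and with Cg share the Cr × Cg libraries and are not independent. Leaving out Cg replicate 1 (0.083), Cg 2 (0.099), Cr × Cg 1 (0.066) or Cr × Cg 2 (0.08) ended the AGL29 call, and leaving out Cg 1 (0.051), Cg 2 (0.093) or Cr × Cg 2 (0.11) the AGL39 call. The AGL91 call ended when Cr replicate 1 (0.06), Cr 2 (0.059), Cg 1 (0.19), Cg 2 (0.14), Cr × Cg 1 (0.083) or Cr × Cg 2 (0.15) was left out. Over all alternatives the adjusted p lay between 0.015 and 0.099 for AGL29, 0.0016 and 0.11 for AGL39, and 2e-04 and 0.19 for AGL91, and every log2 fold change was above 2.7.

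Some single markers stood apart in Cr × Cg. Within the endosperm list, MINI3 had 41.8 and 47.9 CPM in Cr × Cg, against 5.99 and 6.69 in Cg and 0.919 and 2.07 in Cr. ALE1, a subtilisin-like protease of the endosperm, had 8.38 and 16.1 CPM in Cr × Cg, against 65.1 and 38.5 in Cg and 93.8 and 149 in Cr. The sum of the list thus hides members on opposite sides of the parents. VGD1, a pollen gene, stood apart in replicate 1 only. It had 19.8 and 4.68 CPM in Cr × Cg, against 1.90 and 4.66 in Cg and 2.58 and 1.87 in Cr. The sums of the embryo and maturation markers overlapped with both parents. They were 1065 and 99.92 CPM in Cr × Cg, against 614 and 346 in Cg and 11830 and 1006 in Cr. LEC1 and LEC2 of this list were lower in both Cr × Cg libraries than in any parental library, and its other members were not. LEC1 had 10.6 and 25.6 CPM in Cr × Cg, against 174 and 78 in Cg and 147 and 148 in Cr. LEC2 had 30.5 and 39.6 CPM in Cr × Cg, against 103 and 100 in Cg and 53.1 and 88.8 in Cr. The part of these markers in the level of the 3 genes was not tested.

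In Cg × Cr seeds, none of the 3 genes was called by edgeR when set against either parent, although AGL29 and AGL39 had the lowest mean of all crosses there. Against Cr, where 6.47% of all tested genes were called (4.56% higher and 1.91% lower), Cg × Cr gave 2 counts of AGL29 and Cr gave 22. This is 10.48 times more in Cr (exact 95% interval 2.58 to 91.9, counting error only), with a log2 fold change of -3.22 (SE 0.84, edgeR adjusted p = 0.061, unadjusted p = 0.00461). For AGL39, 3 counts in Cg × Cr and 16 in Cr correspond to 5.08 times more in Cr (1.45 to 27.2), with a log2 fold change of -2.26 (SE 1.08, edgeR adjusted p = 0.27). Without Cg × Cr replicate 1 the log2 fold change was -3.15 for AGL29 (adjusted p = 0.24) and -1.81 for AGL39 (0.59), and without replicate 2 it was -3.31 for AGL29 (0.19) and -2.89 for AGL39 (0.37). For AGL91 the log2 fold change was 1.35 (SE 0.91, edgeR adjusted p = 0.44), with overlapping libraries. Without Cg × Cr replicate 2 it was -1.20 (adjusted p = 0.41) and without replicate 1 it was 2.23 (0.07), so its direction was set by a single library.

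Against Cg, where 2.55% of all tested genes were called (1.24% higher and 1.32% lower), Cg × Cr gave 2 counts of AGL29 and Cg gave 11, which is 5.45 times more in Cg (exact 95% interval 1.19 to 50.6) and a log2 fold change of -2.30 (SE 0.87, edgeR adjusted p = 0.19). AGL39 had 3 and 8 counts, with overlapping libraries and a log2 fold change of -1.30 (SE 1.15, edgeR adjusted p = 0.57), which turned to 0.48 without Cg replicate 1. Without Cg × Cr replicate 1 the value was -2.23 for AGL29 (adjusted p = 0.47) and -0.84 for AGL39 (0.85), and without replicate 2 it was -2.39 for AGL29 (0.35) and -1.92 for AGL39 (0.59). For AGL91 both Cg × Cr libraries lay below both Cg libraries, with a log2 fold change of -1.95 (SE 0.80, edgeR adjusted p = 0.23, unadjusted p = 0.0425). Without Cg × Cr replicate 2 it was -4.49 and was called (adjusted p = 0.021), and without replicate 1 it was -1.07 (adjusted p between 0.021 and 0.43 over all alternatives). At unadjusted p under 0.05, AGL29 passed against both parents and AGL91 against Cg, and DESeq2 called none of the 3 in Cg × Cr either.

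The reciprocal hybrids carry the same 2 genomes in the embryo and differ in which species was the mother. All 3 genes were far higher in Cr × Cg than in Cg × Cr, a comparison in which 24.6% of all tested genes were called (11.6% higher and 13% lower). The log2 fold change was 5.42 for AGL29 (SE 0.81, edgeR adjusted p = 0.0036), 5.55 for AGL39 (SE 1.05, edgeR adjusted p = 0.0081) and 5.02 for AGL91 (SE 0.87, edgeR adjusted p = 0.0068). The ratios of summed counts were 47.9 for AGL29 (97 against 2 counts, exact 95% interval 12.9 to 401.5), 47.1 for AGL39 (143 against 3, 15.8 to 231.2) and 32.8 for AGL91 (1426 against 43, 24.2 to 45.5). AGL29 and AGL91 were called in each of 15 alternative fits, and AGL39 in 14, with the exception of that without Cg × Cr replicate 1 (0.056, range 0.00014 to 0.056). For AGL91 the log2 fold change was 4.14 without Cg × Cr replicate 1 and 7.56 without replicate 2, and the call held in both. The embryo and maturation markers summed to 1065 and 99.92 CPM in Cr × Cg, against 4361 and 1968 in Cg × Cr. Within this list LEC1, a regulator of embryo development, had 10.6 and 25.6 CPM in Cr × Cg, against 59.3 and 96.0 in Cg × Cr. FUS3, with 26.7 and 6.62 CPM in Cr × Cg, against 174 and 106 in Cg × Cr, was also lower in both Cr × Cg libraries. The same held for CRB, SESA4, OLE1, OLE2 and TIP3-1. The remaining members, LEC2, CRA1, CRC and SESA3, overlapped between the hybrids. LEC2 had 30.5 and 39.6 CPM in Cr × Cg, against 23.5 and 38.4 in Cg × Cr. CRC had 315 and 0.126 CPM in Cr × Cg, against 1350 and 238 in Cg × Cr. The endosperm marker sums overlapped, with 172 and 325 CPM for Cr × Cg, against 78.25 and 206.5 CPM for Cg × Cr. The part of these markers in the difference between the hybrids was not tested.

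**Figure D3:**
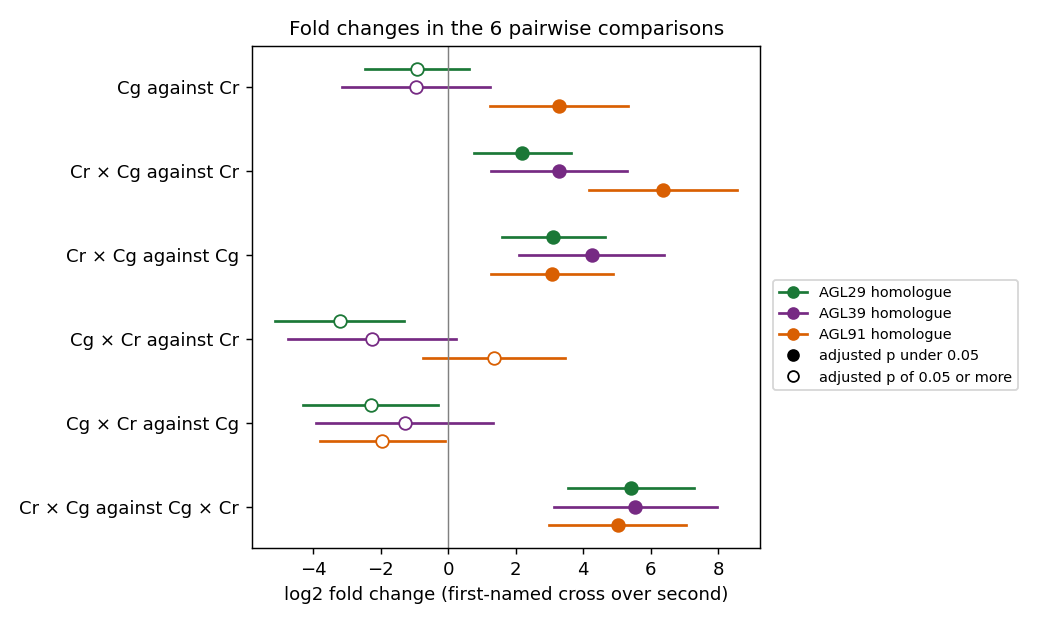
Log2 fold change of each gene in the 6 comparisons between crosses, as the first-named cross over the second, with 95% intervals from edgeR's test; filled points have an adjusted p under 0.05. All 3 genes are called wherever Cr × Cg is compared, none where Cg × Cr is compared with a parent, and AGL91 alone between Cg and Cr.

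The means of each gene can be put in order, of which the tests separate a part. For AGL29 and AGL39 the order of means was Cr × Cg, Cr, Cg and Cg × Cr. In edgeR's test with all 8 libraries, Cr × Cg differed from each of the other crosses, while neighbours further down were not told apart. Both genes had passed the filter on low counts with the help of Cr × Cg. Of 15 alternative fits, AGL29 in Cr × Cg was called in 5 against Cr, 11 against Cg and 15 against Cg × Cr. For AGL39 these numbers were 12, 12 and 14. For AGL91 the order of means was Cr × Cg, Cg, Cg × Cr and Cr. There, Cr × Cg differed from Cg and Cg from Cr in the same test, while Cg × Cr was not told apart from Cg or Cr. The call of Cr × Cg against Cg held in 9 of 15 alternative fits, and that of Cg against Cr in 8 of 15.

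The 4 crosses also form a design of 2 mother and 2 father species. With a Cr mother, a Cg in place of a Cr father went with a log2 difference of 2.20 for AGL29, 3.29 for AGL39 and 6.37 for AGL91, which are the differences of Cr × Cg from Cr. With a Cg mother, the same change of father corresponds to Cg against Cg × Cr. In the reverse direction, Cg × Cr over Cg, the log2 fold change was -2.30 for AGL29, -1.30 for AGL39 and -1.95 for AGL91, none of them called. The summed counts were 5.45 times higher in Cg for AGL29, 2.64 times for AGL39 and 4.01 times for AGL91. With a Cr mother this change turns a parental seed into a hybrid, and with a Cg mother the reverse. The difference between these 2 father effects is therefore also that of both hybrids from both parents. These 2 readings cannot be told apart. The difference was -0.10 for AGL29 (edgeR adjusted p = 0.94), 1.99 for AGL39 (0.52) and 4.42 for AGL91 (0.075). It was thus not called for any of the 3, where 5.85% of all tested genes were (2.77% higher and 3.08% lower). For AGL91 it was called in DESeq2 (adjusted p = 0.00086) and without Cg × Cr replicate 1 (5.30, edgeR adjusted p = 0.01), while it was 1.88 without Cg × Cr replicate 2, and its adjusted p ranged from 0.00086 to 0.29 over the alternatives.

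Across the 8 libraries, AGL29 and AGL39 followed each other more closely than either followed AGL91. The correlation of log2 CPM (pseudocount of 0.5 CPM) was r = 0.94 (Spearman's rho = 0.93) for AGL29 with AGL39. It was 0.82 (0.57) for AGL29 with AGL91, and 0.83 (0.57) for AGL39 with AGL91. The pseudocount exceeds every level of AGL29 and AGL39 outside Cr × Cg, which compresses the differences among those libraries. The correlations describe 8 libraries of 4 crosses in which Cr × Cg stands apart, and are given without a test.

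The gene whose pattern was most like that of AGL91 was the homologue of AGL40, Carubv10007644m.g, with r = 0.995 over the 8 libraries. Cr × Cg yielded 1570 and 1618 of its counts, Cg × Cr 6 and 91, Cg 204 and 202, and Cr 24 and 20, so that the same Cg × Cr replicate was the higher one. Among all tested genes, AGL40 was followed by Carubv10027876m.g (r = 0.994) and Carubv10013748m.g (r = 0.993).

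For AGL29 the closest genes were Carubv10009509m.g (r = 0.997), Carubv10013889m.g (r = 0.993) and Carubv10002993m.g (r = 0.986), of which the first reached 2467 and 1826 counts for Cr × Cg, 948 and 799 for Cg × Cr, 1077 and 918 for Cg, and 1429 and 965 for Cr. Its range was thus far narrower than that of AGL29, since the correlation measures the shape of a pattern and not its size.

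For AGL39 the closest genes were Carubv10011874m.g (r = 0.993), Carubv10012750m.g (r = 0.991) and Carubv10010006m.g (r = 0.986). Carubv10012750m.g reached 122 and 265 counts for Cr × Cg, 0 and 3 for Cg × Cr, 12 and 1 for Cg, and 3 and 9 for Cr, and shared with AGL39 the higher Cr × Cg replicate 2.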

How the data were processed

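The authors deposited read counts per annotated gene for 8 seed libraries, without normalization. According to the study's methods, Stampy was the aligner, the C. rubella genome the reference and htseq-count, at its defaults, the counter, and reads without a unique position had been removed. The submitters' processing notes also name Trimmomatic. The authors' own calls came from DESeq2 fold changes and RankProd, which was not run here.

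The test was edgeR's quasi-likelihood test (edgeR 4.0.16, with limma 3.58.1, in R 4.3.3). After filterByExpr at a count minimum of 10, 21214 of 26521 genes remained, and these were scaled by TMM and fitted for all 4 crosses together with the robust option. CPM are counts relative to the TMM-scaled library size, and the genes left out held 0.015 to 0.028% of the counts. P-values were adjusted over all tested genes by the Benjamini-Hochberg method, with a threshold of 0.05. The SE is the absolute log2 fold change divided by the square root of the F statistic. Ratios of summed counts carry exact binomial 95% intervals, which cover counting error only. The scripts were tested on simulated data. Alternatives were DESeq2 1.42.0, its size factors in edgeR, other filters on low counts, the replicate number as a block, only the crosses compared, and each library left out. Figures used Python 3.11.15 and matplotlib 3.10.9.

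The replicate number was not used as a block, since the labels do not say that it pairs libraries. The 3 genes were picked by name, but they, the marker lists and the tests were proposed with earlier results of these data known. The genes named beside the 3 are, for each, the 3 tested genes with the highest correlation of log2 CPM over 8 libraries, with the pseudocount of 0.5 CPM. Results on further genes of the study's list are not reported here. The single markers were named after their values had been seen. Gene names come from the study's list, and no sequence or coordinate was used here.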

Additional observations from a re-analysis of the deposited data

Results flagged for a closer look

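The change of each gene against a parent common to both hybrids differed between the cross directions. On the log2 scale, the change in Cr × Cg exceeded that in Cg × Cr by 5.42 for AGL29, 5.55 for AGL39 and 5.02 for AGL91 (edgeR adjusted p = 0.0036, 0.0081 and 0.0068, with 2 libraries per cross). The common parent cancels in this difference, which is therefore the direct comparison of the hybrids. In that comparison, 24.6% of all tested genes were called. AGL29 and AGL39 had passed the filter on low counts only with the help of the Cr × Cg libraries. Their tests here are therefore not independent of that filter. Both libraries of Cr × Cg lay above the other 6 libraries for each gene, as they did for 15.8% of all 21214 tested genes. Both libraries of Cg × Cr lay below all 4 parental libraries for AGL29 and below both Cr libraries for AGL39, while for AGL91 only replicate 1 lay below all 4. Among all tested genes, 6.48% had both Cg × Cr libraries below the other 6.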

How the results depend on the processing

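Of 312 fits of the 3 genes under alternatives, 271 left direction and side of the threshold in place, 34 lost a call, 3 gained one and 4 changed direction. The cause was not tested. Apart from left-out libraries, AGL29 in Cr × Cg against Cr lost its call with DESeq2 (log2 fold change 2.23), without a filter on low counts (2.19), with the replicate block (2.22) and with only the crosses compared (2.20). AGL91 in Cg against Cr lost it without the filter (3.31). The difference between the father effects of AGL91 was called with DESeq2 (4.42). With 1 library left out, the log2 fold change of AGL91 lay between 2.97 and 3.66 for Cg against Cr, 2.72 and 3.33 for Cr × Cg against Cg, -1.20 and 2.23 for Cg × Cr against Cr, -4.49 and -1.07 for Cg × Cr against Cg, and 1.88 and 5.30 for the difference between father effects. For AGL29 it lay between 2.01 and 2.42 for Cr × Cg against Cr, 2.84 and 3.48 against Cg, and -0.38 and 0.26 for the difference between father effects. For AGL39 it lay between 2.38 and 3.84 for Cr × Cg against Cr, 3.35 and 6.03 against Cg, -2.04 and 0.48 for Cg × Cr against Cg, and 4.67 and 6.19 for the hybrids. With a pseudocount of 0.1, the parental difference in the ratio of AGL91 to AGL29 was 3.63, that of AGL91 to AGL39 3.76 and that of AGL29 to AGL39 0.12. With the pseudocount of 0.5, the last of these lay between -0.18 and 0.14 with 1 library left out. Over all genes, DESeq2 called 4211 for Cg against Cr (2766 in edgeR), 2536 for Cg × Cr against Cr (1373), 1937 for Cg × Cr against Cg (541) and 2536 for the difference between father effects (1240). Without 1 library, edgeR called 953 to 2714 for Cg against Cr, 2064 to 4558 for Cr × Cg against Cr (4822), 1086 to 3049 against Cg (3155), 234 to 1146 for Cg × Cr against Cr, 155 to 450 against Cg, 2297 to 4844 for the hybrids (5213) and 313 to 929 for the father effects.

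Replicate numbers do not pair the libraries by the labels. The differences between replicates 1 and 2 correlated between crosses with r from -0.208 to 0.36, and the replicate block changed no other call of the 3 genes. With the numbers of Cg exchanged, chosen after the data had been seen because r was -0.141 for Cr and Cg, the calls for Cg × Cr against Cg became 1304 and those for Cg against Cr 3474. Depth limits AGL29 and AGL39 in Cg × Cr, Cg and Cr, where they had at most 14 counts in a library.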
